A study of Rattus norvegicus with 6 samples.

Results

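The transcripts of 9 genes of the dopamine system were followed in the amygdala of rats after a single injection of ethanol: the receptor genes Drd1, Drd2, Drd3, Drd4 and Drd5, the synthesis enzymes Th and Ddc, and the monoamine oxidases Maoa and Maob. They were taken by symbol from the 38445 genes of the count files, and all 9 were found. Both groups were adult male Sprague Dawley rats of wild-type genotype. The control rats received saline and the ethanol rats received ethanol at 1 g/kg, both by the intraperitoneal route, and tissue was taken 1 h later. Each group had 6 rats, and RNA of 2 rats was pooled for each library, which left 3 control and 3 ethanol libraries, so the spread between libraries is that between pools of rats. The dissection held the central, medial and basolateral nuclei together, and in such bulk tissue fewer cells of a type and less RNA per cell cannot be told apart.

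Dopamine is made from tyrosine in 2 steps. Tyrosine hydroxylase (Th) carries out the first and rate-limiting step, and aromatic L-amino acid decarboxylase (Ddc) the second, which it also does for serotonin. The amygdala receives its dopamine mainly through axons of midbrain neurons, whose cell bodies, with most of their mRNA, lie outside it. The D1-like receptors (Drd1, Drd5) raise cyclic AMP and the D2-like receptors (Drd2, Drd3, Drd4) lower it. In the striatum Drd1 and Drd2 mark separate classes of GABA neurons, and neurons of the central amygdala share part of that program. The monoamine oxidases sit on the outer mitochondrial membrane and degrade dopamine. Maoa prefers serotonin and noradrenaline, and Maob is abundant in astrocytes.

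The libraries held 62576504 to 70755739 reads counted in genes, so that 3 reads, the upper limit that a count of 0 allows, correspond to 0.0424 to 0.0479 CPM (read counts scaled to a common library total), for counting error only. All 9 amygdala neuron markers on a fixed list had reads in every library, but the libraries differed in tissue makeup in ways the treatment labels do not give. Ethanol 3 held the highest level of 5 of 6 hypothalamic peptide genes, with a summed level of 335 CPM against 18.3 to 121 CPM in controls and 22.6 and 36.6 CPM in the other ethanol libraries. Ethanol 2 alone held more than 9 reads of the dopamine transporter gene Slc6a3, as described with Th. The summed level of 8 choroid plexus markers was 514 to 1115 CPM in controls and 478 CPM in ethanol 3, but 11.7 and 13.3 CPM in ethanol 1 and 2. Otx2, a defining choroid plexus gene, had 1 read in control 2 and 0 in the others.

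Of the 8 dopamine genes that passed the filter on low counts, 0 differed between ethanol and control at the study's threshold, an adjusted p of 0.2 (quasi-likelihood test of edgeR, p-values adjusted by Benjamini-Hochberg). Over all 18141 genes tested, 0 were called as well, or 0.0%. DESeq2 called 74 genes, edgeR's likelihood ratio test 77 and limma-voom 0, with 0 dopamine genes among them, and the first test called 83 genes without ethanol 3 and 4 without ethanol 1, again with 0 dopamine genes. At an unadjusted p of 0.05 the same test called 0 of the 8 dopamine genes, against 4.15% of all genes. The ethanol and control libraries overlapped for each of the 9 genes, while 8.85% of all genes had groups that did not overlap. The adjusted p was 1.0 for each of the 8 genes, so that what the data give is the range of change that these 6 libraries leave possible. The median log2 fold change of the 8 genes was 0.22, with 6 higher and 2 lower in the ethanol group. Over all genes tested the median was 0.006, with 9539 higher and 8602 lower. The median standard error was 0.24 for the 8 genes and 0.11 over all genes tested. The genes fell into a steady and a variable set. From the lowest to the highest of the 6 libraries, Maoa varied by 1.11 times, Maob by 1.18 times and Ddc by 1.34 times, near the median of 1.28 times over all genes tested. Drd5 varied by 1.83 times, Drd1 by 2.20, Drd2 by 3.11, Drd3 by 3.57 and Th by 4.83. Read numbers differed as well, at 37 to 140 per library for Drd3 and 53 to 98 for Drd5, against 4613 to 5131 for Maoa. Drd1, however, varied more than Ddc with more reads (1395 to 3009 against 482 to 665). The part of counting error in these spreads was not tested.

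**Figure D1:**
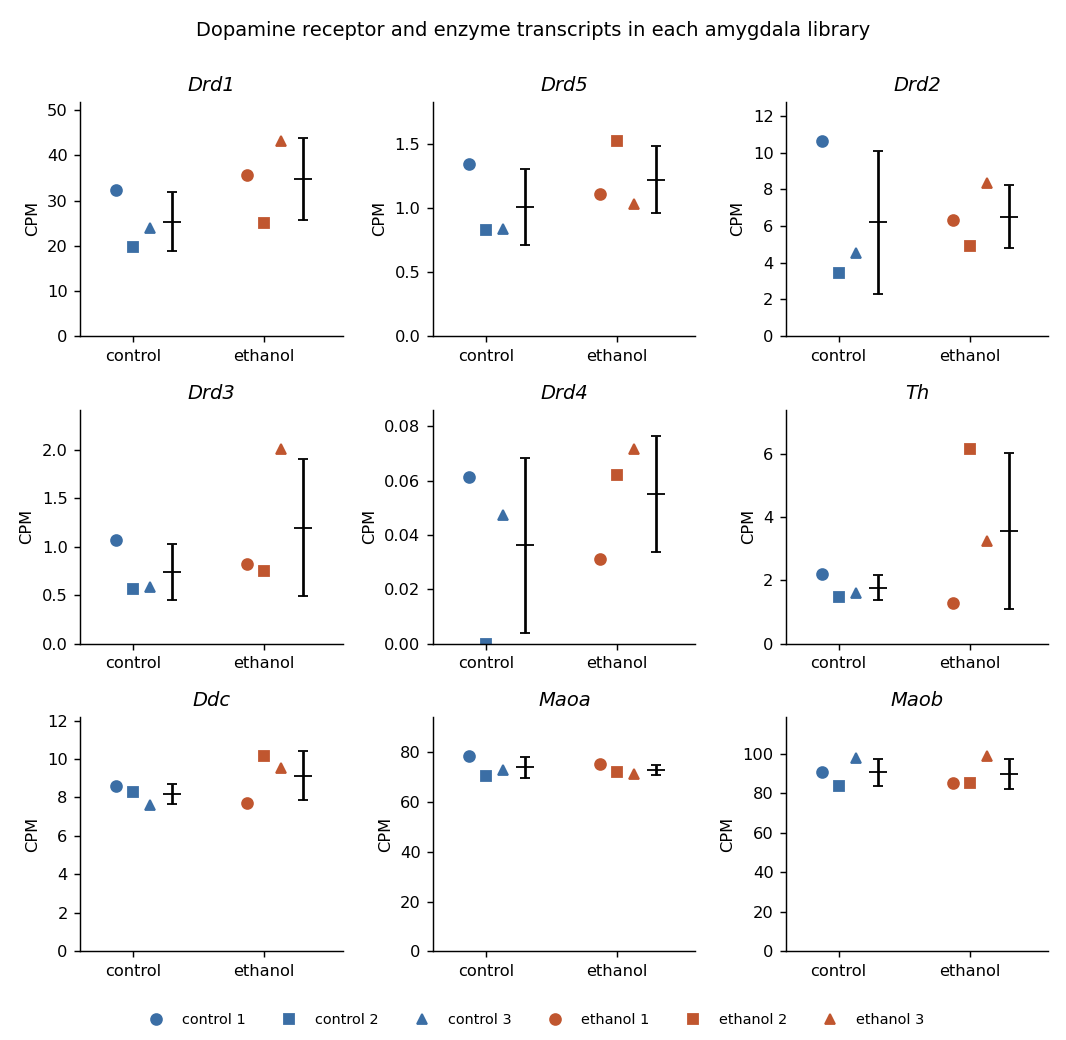
Level of each of the 9 transcripts in CPM (vertical axes from 0, each gene on its own scale) in the 3 control and 3 ethanol libraries. Symbols give the replicate number and the black bar the mean and SD of a group. The groups overlap in every panel. Th is highest in ethanol 2, at 6.17 CPM, with ethanol 3 at 3.25 CPM also above all controls and ethanol 1 at 1.28 CPM below them.

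Levels were compared between genes as CPM per kb of annotated exon. In the control group Maob was at 38.0 ± 2.90 and Maoa at 35.5 ± 1.95 CPM per kb (SD, n = 3 libraries), and these 2 overlapped over the 6 libraries. Drd1 followed at 5.76 ± 1.47 CPM per kb (SD, n = 3), below every library of Maoa and above every library of Drd2, which was at 2.25 ± 1.42 CPM per kb (SD, n = 3). Th (1.00 ± 0.226), Ddc (0.825 ± 0.0521) and Drd5 (0.703 ± 0.207 CPM per kb; SD, n = 3 each) came next, and the ranges of neighbours in this order, from Drd2 to Drd5, overlapped. Drd3 lay at 0.157 ± 0.0608 CPM per kb (SD, n = 3), under all of these, and Drd4 at 0.0131 ± 0.0116 CPM per kb (SD, n = 3) was the lowest. In the ethanol group the order differed in no position. Of all reads of the 9 genes, Maob held 42.3%, Maoa 34.4% and Drd1 14.1%. The annotated exons affect these values: those of Ddc add up to 9905 nt over 20 blocks of alternative exons, which lowers its value, and Drd5 is annotated by its 1428 nt coding length only.

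**Figure D2:**
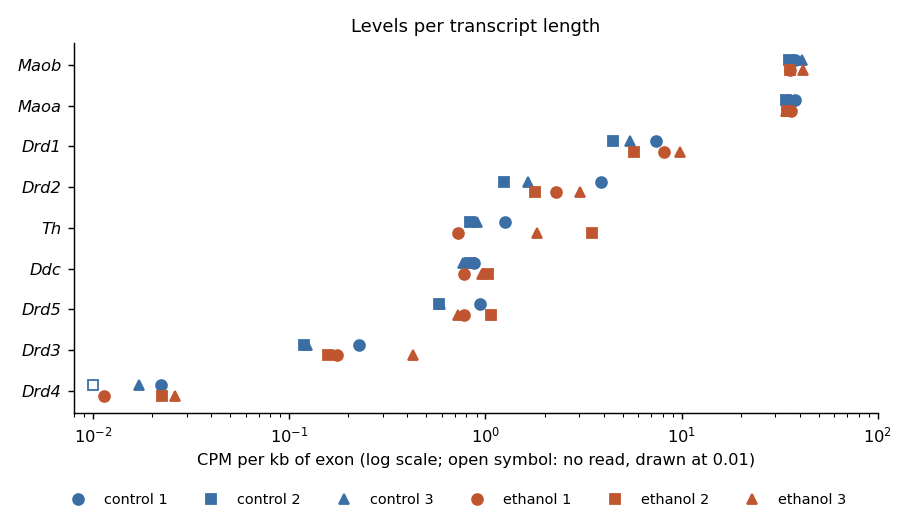
Level per transcript length, as CPM per kb of exon on a log axis, for each library, with genes in the order of the control mean. The monoamine oxidases lie at 33.9 to 41.4 CPM per kb, Drd1 at 4.47 to 9.83, and Drd4 at most at 0.0260 in any library.

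Of the D1-like receptors, Drd1 (NCBI gene 24316, chromosome 17 of Rnor_6.0 from 11099736 to 11104352, 3 exonic blocks) was the most abundant receptor. Its level was 32.4, 19.6 and 23.9 CPM in control 1, 2 and 3 and 35.7, 25.1 and 43.2 CPM in ethanol 1, 2 and 3. Ethanol 1 and 3 were above all controls, but ethanol 2 was below control 1. The log2 fold change was 0.45 (standard error 0.23, 95% interval -0.08 to 0.99, unadjusted p = 0.0836 from edgeR's quasi-likelihood test, adjusted p = 1.0). The interval thus runs from little below no change to 1.98 times the control level. The value leaned on single libraries, at 0.67 without control 1, 0.64 without ethanol 2, 0.30 without control 2 and 0.27 without ethanol 3. Drd5 (NCBI gene 25195, chromosome 14 from 77220579 to 77222006, 1 exon) was counted at 53 to 98 reads per library. Its level was 1.35, 0.831 and 0.836 CPM in the controls and 1.11, 1.52 and 1.03 CPM after ethanol. Control 1 lay within the ethanol range, and the log2 fold change was 0.28 (standard error 0.26, interval -0.31 to 0.87, unadjusted p = 0.303 from the same edgeR test). Without control 1 it was 0.54, and without ethanol 2 it was 0.09.

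Of the D2-like receptors, Drd2 (NCBI gene 24318, chromosome 8 from 53678777 to 53743643, 8 exonic blocks) was at 10.6, 3.42 and 4.53 CPM in the controls and at 6.31, 4.91 and 8.33 CPM after ethanol. Control 1 was the highest of all 6 libraries and controls 2 and 3 were the lowest, so the ethanol libraries lay inside the control range. The log2 fold change was 0.07 (standard error 0.40, interval -0.86 to 1.01, unadjusted p = 0.858 from the same edgeR test), and its sign depended on the libraries: 0.71 without control 1, but -0.22 without control 2, -0.14 without ethanol 3 and -0.11 without control 3. Drd3 (NCBI gene 29238, chromosome 11 from 61819102 to 61883223, 8 exonic blocks) had 37 to 140 reads per library. It was at 1.07, 0.563 and 0.583 CPM in the controls and at 0.826, 0.746 and 2.01 CPM after ethanol, where ethanol 3 alone exceeded control 1. Its log2 fold change of 0.70 (standard error 0.44, interval -0.32 to 1.71, unadjusted p = 0.150 from the same edgeR test) went to 0.09 without ethanol 3 and to 1.06 without control 1. Drd4 (NCBI gene 25432, chromosome 1 from 214278296 to 214282818, 4 exonic blocks) had 4, 0 and 3 reads in the controls and 2, 4 and 5 after ethanol. At 18 reads in all it did not pass the filter on low counts, and a difference was not detectable at this depth.

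Drd1, Drd2 and Drd3 were high in the same libraries: control 1, ethanol 1 and ethanol 3 held the 3 highest levels of each. Some other transcripts of striatal-type neurons, named here after their values were seen, took a similar course, and others did not. Six3, a transcription factor of striatal-type neurons, was at 5.76, 3.41 and 4.34 CPM in the controls and at 4.61, 3.20 and 6.07 CPM after ethanol. Adora2a, the adenosine receptor found with Drd2, was at 10.8, 3.11 and 5.90 CPM in the controls and at 5.31, 3.36 and 9.32 CPM after ethanol, where control 3 was slightly above ethanol 1. Over the whole list of 12 striatal-type markers other than the receptors, the summed level was 693, 470 and 539 CPM in the controls. It was 669, 533 and 691 CPM after ethanol, highest in the same 3 libraries, and 0 of the 12 had a library at 0 reads. Singly, 3 of the 12 were highest in control 1, 2 in ethanol 1 and 5 in ethanol 3, but 1 each in control 2 and ethanol 2. Foxp1 was lowest in ethanol 3, at 26.7 CPM against 30.5 to 34.6 CPM in the controls. Tac1 was at 38.3 CPM in ethanol 1, below all controls (47.7 to 61.3 CPM). Transcripts of cortical-type glutamate neurons were lowest in control 1 and ethanol 3 but not in ethanol 1. Slc17a7, the vesicular glutamate transporter of these cells, was at 413, 770 and 554 CPM in the controls and at 668, 879 and 425 CPM after ethanol. Neurod6, their transcription factor, was at 23.9, 47.2 and 32.7 CPM in the controls and at 42.4, 55.7 and 10.96 CPM after ethanol, so that ethanol 1 held the third highest level of both. The part of tissue makeup in the receptor values was not tested.

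**Figure D3:**
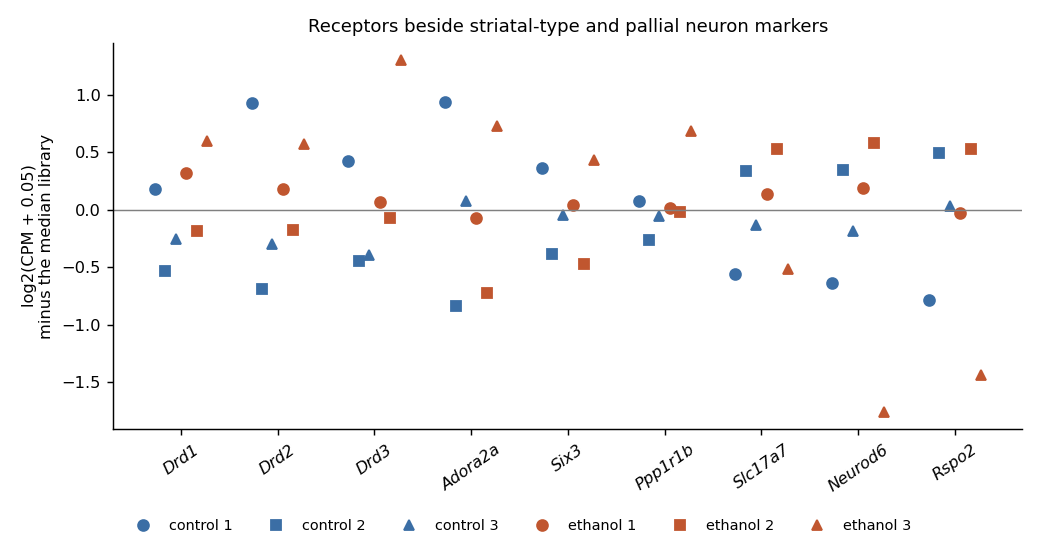
Level of 3 receptors, 3 striatal-type markers and 3 pallial neuron markers in each library, as log2(CPM + 0.05) minus the median of the 6 libraries. Control 1 and ethanol 3 lie above the median for the receptors, Adora2a and Six3 and below it for Slc17a7, Neurod6 and Rspo2. The 3 striatal-type markers are part of a list of 12, of which Foxp1, not shown, was lowest in ethanol 3.

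The ratio of Drd1 to Drd2 per kb, which does not depend on scaling between libraries, was 1.90, 3.58 and 3.30 in the controls and 3.53, 3.19 and 3.24 after ethanol. Control 1 was apart from the other 5 libraries, which lay close together. The mean log2 ratio was 1.497 ± 0.497 (SD, n = 3) in controls and 1.73 ± 0.08 (SD, n = 3) after ethanol (2-sided exact permutation test, p = 0.9, and 1.0 adjusted over the 3 ratios tested). The smallest p that 3 libraries against 3 allow is 0.1.

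Th (NCBI gene 25085, chromosome 1 from 216073034 to 216080287, 13 exonic blocks) had the widest spread of the 9 genes. Its level was 2.22, 1.48 and 1.59 CPM in the controls and 1.28, 6.17 and 3.25 CPM after ethanol, from 145, 105 and 101 reads and from 82, 397 and 226 reads. Ethanol 2 and 3 were above all controls and ethanol 1 was below all of them. The log2 fold change was 1.02 (standard error 0.49, interval -0.12 to 2.15, unadjusted p = 0.0732 from edgeR's quasi-likelihood test, adjusted p = 1.0). It was 0.36 without ethanol 2 and 1.42 without ethanol 1, with an unadjusted p of 0.374 and 0.00257 from the same edgeR test. Ddc (NCBI gene 24311, chromosome 14 from 91905919 to 91996816) was at 8.61, 8.29 and 7.60 CPM in the controls and at 7.73, 10.1 and 9.55 CPM after ethanol. The same 2 ethanol libraries were the highest, over a narrower range, and the log2 fold change was 0.16 (standard error 0.12, interval -0.12 to 0.44, unadjusted p = 0.220 from the same edgeR test). The interval leaves room for a rise of at most 1.36 times. Without ethanol 1 the log2 fold change was 0.27, and without ethanol 2 it was 0.08. The ratio of Ddc to Th per kb was 0.689, 0.995 and 0.846 in the controls and 1.07, 0.293 and 0.523 after ethanol. The mean log2 ratio was lower by 0.61 in the ethanol group, and the groups overlapped (-0.26 ± 0.27 in controls and -0.87 ± 0.94 after ethanol, SD, n = 3 each; 2-sided exact permutation test, p = 0.4, and 1.0 adjusted over the 3 ratios). The difference in the log2 ratio was -0.16 without ethanol 2 and -1.09 without ethanol 1.

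The library with the most Th also had the highest level of some, but not all, genes found in dopamine neuron cell bodies, named here after their values were seen. Slc6a3, the plasma membrane dopamine transporter, had 1, 9 and 5 reads in the controls, 2 in ethanol 1, 290 in ethanol 2 and 4 in ethanol 3. That is 4.51 CPM in ethanol 2 and at most 0.127 CPM in any other library. Slc18a2, the vesicular monoamine transporter, was at 1.30, 1.35 and 2.41 CPM in the controls and at 0.997, 5.94 and 2.23 CPM after ethanol. En1, a transcription factor of midbrain dopamine neurons, had 60 reads in ethanol 2 and 5 to 17 in the others, and the nicotinic subunit gene Chrna6 had 42 against 1 to 10. Of the 11 genes on the midbrain dopamine neuron list, 6 were highest in ethanol 2, and the list's 2 most abundant genes, Ret and Nr4a2, split between ethanol 3 and ethanol 2. The summed level of the list was 65.4 to 66.7 CPM in the controls and 64.0, 74.8 and 83.3 CPM in ethanol 1, 2 and 3. Lmx1a, another transcription factor of these neurons, went the other way in ethanol 2. It was at 1.22, 2.49 and 1.70 CPM in the controls and at 0.358, 0.342 and 1.996 CPM after ethanol. Like the summed choroid plexus markers, Lmx1a was low in both ethanol 1 and ethanol 2, and a link was not tested. Lmx1b and Foxa1 had 27 and 13 reads in ethanol 3 and at most 3 in any other library. Pitx3, a defining factor of these neurons, had few reads, with 9 in ethanol 2 and 1 to 3 in the others. Foxa2 had 0 or 1 read per library. Ethanol 3 reached its Th level with Slc6a3 at 0.0574 CPM. It had the highest levels of hypothalamic Pmch (206 CPM, against 2.12 to 14.5 in the others) and Hcrt (9.22 CPM, against 0.483 to 1.29), genes of the melanin-concentrating hormone and orexin neurons. The share of the Th difference that goes with these transcripts was not tested.

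Markers of other monoamine neurons bear on Ddc and Th, since serotonin neurons use Ddc and noradrenaline neurons use both. The serotonin transporter gene Slc6a4 had 45 reads in ethanol 2 and 2 to 10 in the others, and Tph2, which makes serotonin in the brain, was at 0.995 CPM in ethanol 2 and 0.127 to 0.673 CPM in the others. Dbh, which turns dopamine into noradrenaline, had 9 to 22 reads per library and a log2 fold change of -0.20 (standard error 0.38). The noradrenaline transporter gene Slc6a2 had 1 read in ethanol 1 and 0 elsewhere, which allows a level of up to 0.0479 CPM in the library with the fewest reads. The summed level of the 4 noradrenergic markers was 0.199 to 0.363 CPM in controls and 0.187 to 0.326 CPM after ethanol.

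**Figure D4:**
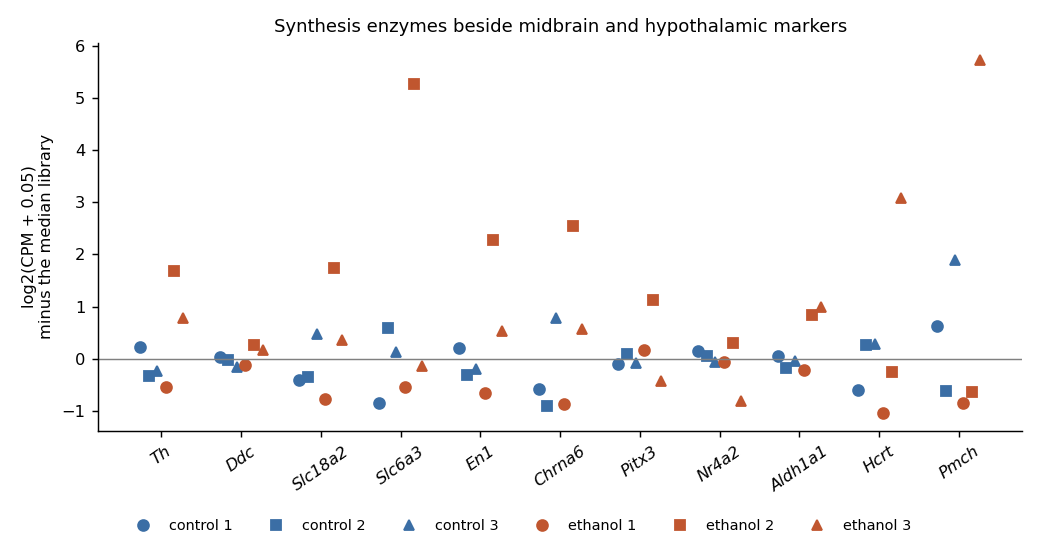
Level of Th and Ddc beside 7 genes found in midbrain dopamine neurons and 2 hypothalamic peptide genes in each library, as log2(CPM + 0.05) minus the median of the 6 libraries. Slc6a3, En1 and Chrna6 are highest in ethanol 2, as Th is, while Pmch and Hcrt are highest in ethanol 3. Of the 11 genes on the midbrain dopamine neuron list, the 6 highest in ethanol 2 are shown. Ret, Lmx1a, Lmx1b, Foxa1 and Foxa2, which were highest in other libraries, are not shown.

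The promoter of Th and those of the monoamine oxidases are shown because Th varied the most and the monoamine oxidases the least. They are the 250 bases upstream of the annotated start in RefSeq's GRCr8 build, a later build than that of the counts, read 5′ to 3′ on the gene's strand. Capitals mark matches to TGACGTCA (the cyclic AMP response element) or GGGCGG (the GC box), searched on both strands. TATAAA (the TATA box) was searched as well. All 9 genes matched an entry, and Ddc had 3.
Th, chr1:207508219-207508468, minus strand: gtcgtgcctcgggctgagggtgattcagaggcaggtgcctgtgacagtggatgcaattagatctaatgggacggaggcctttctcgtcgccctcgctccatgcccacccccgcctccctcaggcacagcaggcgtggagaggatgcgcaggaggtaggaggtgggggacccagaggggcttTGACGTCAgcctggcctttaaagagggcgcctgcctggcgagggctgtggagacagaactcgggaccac
Maoa, chrX:8681373-8681622, minus strand: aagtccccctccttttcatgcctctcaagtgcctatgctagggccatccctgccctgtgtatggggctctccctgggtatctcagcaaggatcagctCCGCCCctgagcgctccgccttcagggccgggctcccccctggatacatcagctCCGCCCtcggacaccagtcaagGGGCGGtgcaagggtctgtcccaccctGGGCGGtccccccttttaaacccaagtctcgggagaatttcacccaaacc
Maob, chrX:8490155-8490404, plus strand: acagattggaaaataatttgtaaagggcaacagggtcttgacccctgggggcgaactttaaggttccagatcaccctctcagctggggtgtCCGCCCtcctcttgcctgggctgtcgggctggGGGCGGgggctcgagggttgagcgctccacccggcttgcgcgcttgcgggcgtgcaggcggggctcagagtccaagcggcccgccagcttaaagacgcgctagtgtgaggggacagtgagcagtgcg
TGACGTCA occurred once in the Th promoter, its first base 69 bases before the start, and in none of the other 8 genes. It was found in 1.59% of the 33469 rat promoters of this length. GGGCGG, found in 30.5% of them, occurred 4 times upstream of Maoa and 2 times each upstream of Maob, Drd2 and Drd5. It did not occur in the bases upstream of the annotated starts of Drd1, Drd3, Drd4, Th and Ddc. TATAAA, found in 12.9% on either strand, occurred upstream of 1 of the 3 starts of Ddc and of none of the other genes. That match in Ddc lay on the strand opposite to the gene. A match of letters is not evidence that a factor binds there. The annotated starts were not checked against where transcription begins, so an absence, as for Drd1, may not hold for the promoter in use.

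Maoa (NCBI gene 29253, chromosome X from 6554698 to 6620722, 15 exonic blocks) and Maob (NCBI gene 25750, chromosome X from 6430694 to 6533520, 15 exonic blocks) are neighbours on opposite strands, and their exons share 0 bases with other genes on either strand. Maoa was at 78.5, 70.6 and 72.7 CPM in the controls and at 75.3, 72.1 and 71.3 CPM after ethanol. All 3 ethanol libraries lay within the control range, and the log2 fold change was -0.02 (standard error 0.06, interval -0.16 to 0.12, unadjusted p = 0.745 from edgeR's quasi-likelihood test). The level after ethanol was thus between 0.895 and 1.09 times that in controls. Maob was at 90.6, 83.9 and 97.7 CPM in the controls and at 85.3, 85.4 and 98.8 CPM after ethanol. The groups covered nearly the same range, and the log2 fold change was -0.01 (standard error 0.08, interval -0.21 to 0.18, unadjusted p = 0.873 from the same edgeR test), or 0.866 to 1.13 times the control level. The signs of both differences changed with the library left out, within -0.05 to 0.02 for Maoa and -0.09 to 0.04 for Maob. Control 3 and ethanol 3, the highest for Maob, were also highest for the summed level of 5 astrocyte markers, at 3384 and 4070.5 CPM against 2829 to 2969 CPM in the other 4 libraries. None of these 5 markers was at 0 in any library, and their part in the Maob values was not tested. The ratio of Maob to Maoa per kb was 1.01, 1.04 and 1.17 in the controls and 0.988, 1.03 and 1.21 after ethanol. The mean log2 ratio was 0.10 ± 0.12 (SD, n = 3) and 0.10 ± 0.15 (SD, n = 3), with a 2-sided exact permutation p of 1.0.

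**Figure D5:**
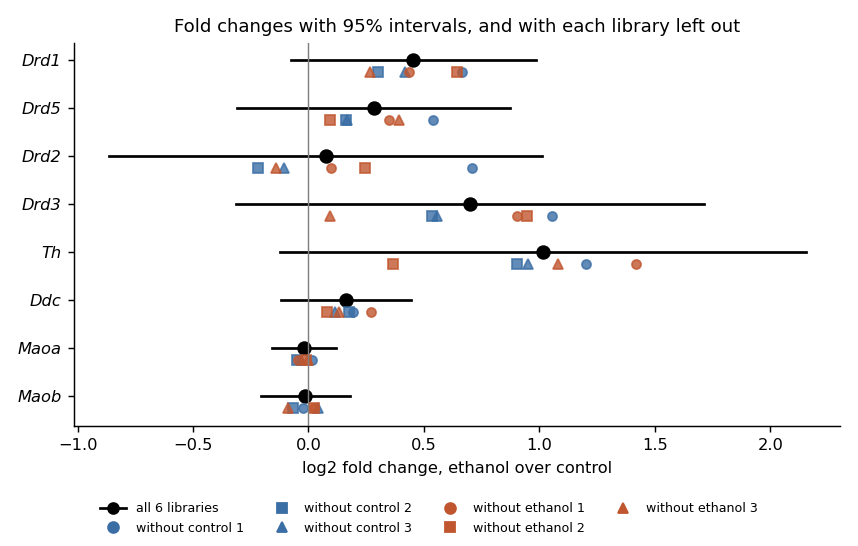
Log2 fold change (ethanol over control) of the 8 genes tested. Black circles and lines are the value and 95% interval from all 6 libraries, and the small symbols below each line are the values with 1 library left out. Every interval includes 0. Drd2 falls on both sides of 0, from -0.22 to 0.71, and Th runs from 0.36 to 1.42.

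Other genes of dopamine handling and signaling were read from a fixed list of 48, of which 45 passed the filter on low counts. Of these, 27 had a higher and 18 a lower mean after ethanol, with a median log2 fold change of 0.05. At an unadjusted p of 0.05, 2 were higher and 0 lower, beside 4.15% of all genes in either direction, and 0 passed an adjusted p of 0.2 in the same edgeR fit. One of the 2 was Aldh1a1, an aldehyde dehydrogenase that acts after the monoamine oxidases and is found in part of the midbrain dopamine neurons. Its level was 12.998, 11.1 and 12.2 CPM in the controls and 10.9, 22.7 and 24.96 CPM after ethanol. Ethanol 2 and 3, the libraries with the most Th, were high and ethanol 1 was below all controls (log2 fold change 0.69, standard error 0.27, unadjusted p = 0.0365 and adjusted p = 1.0 in the same edgeR fit). The other was Gpr6, an orphan receptor of Drd2 neurons, at 3.90, 3.73 and 3.88 CPM in the controls and 4.035, 5.49 and 5.03 CPM after ethanol. Its ethanol libraries all lay above its controls (log2 fold change 0.34, standard error 0.14, unadjusted p = 0.0386 and adjusted p = 1.0 from the same edgeR test).

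By role, the counts at that unadjusted p were as follows. The 2 tested genes of transport and vesicle loading gave 0, and Slc18a1 had a log2 fold change of -0.04 (standard error 0.10). The 6 genes that make and recycle the biopterin cofactor of Th gave 0, and Qdpr, the most abundant, was at 131 ± 30.8 CPM in controls and 138 ± 26.0 CPM after ethanol (SD, n = 3 each). Of 5 other catabolic enzymes, Aldh1a1 was the 1 that passed, and Aldh2 had a log2 fold change of -0.03 (standard error 0.12). The 11 signaling proteins of dopamine-receptive neurons gave 0, with 7 higher and 4 lower. Caly, the most abundant of them, had a log2 fold change of -0.02 (standard error 0.08). Of the 7 receptors, peptides and factors paired with D1 or D2 receptors, Gpr6 passed, and Penk, the enkephalin precursor of Drd2 neurons, had a log2 fold change of 0.19 (standard error 0.19). The 13 genes of general receptor coupling and desensitization gave 0, and Gnas, the stimulatory G protein subunit below D1 receptors, had a log2 fold change of -0.04 (standard error 0.08).

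Genes that followed each dopamine gene most closely were sought over the 6 libraries among genes with a mean of at least 1 CPM, by Pearson's r of log2 CPM. They are a description, because with 6 libraries many genes come close: 47 to 570 genes had r above 0.9, depending on the dopamine gene. The closest were Pvr, Cacng5 and Pde4c for Drd1 (r = 0.990, 0.989 and 0.985) and Mapk6, Casz1 and Ccdc107 for Drd2 (r = 0.997, 0.991 and 0.990). Vcan, Vamp7 and Slc25a3 were the closest to Drd5 (r = 0.9996, 0.986 and 0.985), and Cdk16, Cbln2 and Preb to Drd3 (r = 0.993, 0.986 and 0.981). Elmod3, Tkt and Get3 were the closest to Th (r = 0.988, 0.982 and 0.973), and Get3, Slc25a26 and Tkt to Ddc (r = 0.992, 0.984 and 0.978), so that the 2 synthesis enzymes shared Tkt and Get3. For Maoa they were Scml2, Ufsp2 and Pgrmc1 (r = 0.996, 0.992 and 0.991) and for Maob Rab23, Rps21 and Hibadh (r = 0.999, 0.997 and 0.995).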

How the data were processed

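RNA-seq was analysed from 3 control and 3 ethanol libraries, each from pooled RNA of 2 rats. The authors deposited raw counts per gene, which per the file headers came from featureCounts 1.6.3, reverse-stranded, over exons of the Rnor_6.0 annotation, with no option set to count reads of several genes or places. Alignment is listed as STAR 2.7.0f in the submitters' processing notes. Symbols came from RefSeq (GRCr8) by gene identifier, for 29322 of 38445 genes, and positions from the count files.

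Counts were analysed in R 4.3.3 with edgeR 4.0.16: filterByExpr at its defaults (10 counts, 15 in total; 18141 genes), TMM scaling (factors 0.976 to 1.01), the quasi-likelihood test with Benjamini-Hochberg adjustment, and the study's threshold of 0.2. The model behind the study's own RNA-seq tests is not given in the sources used here. Standard errors were the absolute log2 fold change divided by the root of F, and intervals used the test's degrees of freedom. CPM were scaled by TMM, and log2 CPM carried a prior count of 2. Ratios had 0.5 counts added to each gene. The fits were tested on simulated data. Alternatives were DESeq2 1.42.0, edgeR's likelihood ratio test, limma-voom (limma 3.58.1), other scalings, no filter, the replicate number as a block, and leaving out each library.

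The dopamine genes and lists were chosen with earlier results of these data known. The text names the 9 genes, the most abundant gene of each pathway list and those with an unadjusted p under 0.05, up to 2 genes of a marker list, and the 3 genes most like each dopamine gene, besides genes said to have been chosen by their values. One gene of the marker lists is not reported by name here.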

Additional observations from a re-analysis of the deposited data

How the results depend on the processing

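The result of 0 genes with an adjusted p under 0.2 depended on the test: 74 genes passed with DESeq2 and 77 with edgeR's likelihood ratio test, against 0 with limma-voom. Leaving out 1 library gave 0 to 83 genes. The count of dopamine genes at an unadjusted p under 0.05, which is 0 in the report, was 2 with DESeq2 (Drd1 and Th), 1 with edgeR's likelihood ratio test (Th), 2 without the filter on low counts (Drd1 and Th), and 0 to 2 with 1 library left out. With the replicate number as a block in edgeR's quasi-likelihood fit it was 1, Drd1, at an adjusted p = 0.751. The labels do not say whether the numbers pair the libraries. Same-numbered deviations correlated at 0.0264, 0.388 and 0.211 over 14241 genes. Control 2 and control 3 correlated best with the ethanol library of their own number. Control 1 correlated best with ethanol 3, at 0.305. These values do not settle whether the libraries are paired. Under the block the log2 fold change was 0.21 for Drd2, 0.61 for Drd3 and 0.82 for Th. Other dopamine-pathway genes at that p numbered 4 both without the filter and with the block, against 2 in the report, and 1 to 3 with a library left out. Of 128 alternative values of fold changes and ratios, 117 kept their direction and side of the threshold and 11 changed sign, each with 1 library left out. Over these 6 fits the log2 fold change ran from -0.218 to 0.709 for Drd2, from -0.0518 to 0.0168 for Maoa and from -0.0872 to 0.0430 for Maob. The difference in log2 ratio ran from -0.0512 to 0.406 for Drd1 to Drd2 and from -0.0821 to 0.0704 for Maob to Maoa. The cause was not tested. Depth limits Drd4 (18 reads in all), whose log2 fold change without the filter was 0.63.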

Other observations

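The markers of other cell types were read from the same fixed lists, with unadjusted p-values from edgeR's quasi-likelihood test. The lists were chosen with earlier results of these data known, so the counts below describe the lists and are not a test. Of all genes tested, 4.15% had an unadjusted p under 0.05 in the same edgeR test. All 6 motile cilia and ependyma genes were lower after ethanol at a p under 0.05, with a summed level of 94.0 to 134 CPM in controls and 70.99 to 82.4 CPM after ethanol, and so were 3 of the 7 tested choroid plexus genes. None of the 4 oligodendrocyte genes passed (3158 to 7734 CPM in controls and 3934 to 8994 CPM after ethanol), nor did the 4 microglia genes (181 to 204 and 176 to 208 CPM), the 5 genes of endothelium and mural cells (180 to 197 and 178 to 204 CPM), the 5 astrocyte genes, the 9 amygdala neuron genes or the 6 hypothalamic genes. None of all these genes had an adjusted p under 0.2.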
